A study of Mus musculus with 12 samples.

Results

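5 genes that set how a tissue meets corticosteroids were followed on Affymetrix whole-transcript arrays of mouse heart and cerebrum: Nr3c1, Nr3c2, Fkbp4, Hsd11b1 and Slc10a6. They were taken as the transcript clusters whose only gene symbol in the array annotation is 1 of those names. Each of the 5 genes had 1 such cluster, among 21218 clusters with 1 symbol and 18820 distinct symbols. The genes were chosen with earlier results of these arrays known, and were selected on how their levels compared between PS and MCT in heart and cerebrum, so their differences between the treatments are given as a description and support nothing.

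Glucocorticoids and mineralocorticoids act through nuclear receptors that wait in the cytoplasm in a complex with HSP90 and co-chaperones, and move to the nucleus once hormone is bound. The amount of hormone inside a cell also depends on local supply: an enzyme can regenerate active glucocorticoid from its inert 11-keto form, another can inactivate it, and carriers can bring in steroid sulfates. In the brain both receptors are found in neurons and take part in feedback on the stress axis, and in the heart the mineralocorticoid receptor is largely occupied by glucocorticoid.

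The study asked whether phosphatidylserine (PS), a membrane phospholipid, alters gene expression in mice that model familial dysautonomia (FD). All 12 arrays carry the same labels for strain, C57BL/6J, and genotype, a humanized knock-in IKBKAP allele written FDloxP/+, so the vehicle mice have that allele too. Mice were gavaged from 4 months of age, every other day for 3 months, with PS at 200 mg/kg or with medium-chain triglycerides (MCT), the vehicle, as the design text gives it, whereas the source names give a dose per day. There were 3 arrays each of heart with MCT, heart with PS, cerebrum with MCT and cerebrum with PS. The growth protocol speaks also of wild-type mice, which no array is labelled as. Replicates are labelled as biological, and the labels do not say whether heart and cerebrum of the same number came from 1 mouse. The design text gives 6 mice, 3 per treatment. Values are log2 intensities as deposited, and a level may be compared between arrays for 1 gene but not between genes.

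Several arrays stood apart. Xist, the RNA that coats the silenced X in females, was at 8.92 to 9.86 in the 3 heart PS arrays and in cerebrum PS 1 and PS 3, and at 3.32 to 4.03 in cerebrum PS 2 and all 6 MCT arrays. In heart, treatment and this sex pattern therefore cannot be told apart. Uty, a Y-linked gene, was at 3.16 in heart PS 2 and at 7.23 in cerebrum PS 2. Those 2 arrays therefore do not look like 1 mouse, although they share a number. If the 3 heart PS arrays are 3 mice, a design of 3 mice per treatment leaves none for cerebrum PS 2. Whether an array was mislabelled was not tested. The mean of 10 striatum markers was 9.43 to 9.60 in the cerebrum MCT arrays and 6.75, 6.85 and 8.76 in the PS arrays. The mean of choroid plexus markers was 5.89 in cerebrum MCT 1 and 6.76 in cerebrum MCT 2, against 4.26 to 4.91 in the other cerebrum arrays. The thalamus marker mean was 7.89 in cerebrum MCT 2, against 6.71 to 7.19. Cerebrum MCT 2 had liver RNA (Alb at 9.73, against 3.68 to 3.90 in the other cerebrum arrays), and cerebrum PS 3 had pituitary RNA (Prl at 10.49). Heart MCT 1 was high in adipocyte RNA (Adipoq at 6.46, against 3.97 to 4.66 in the other heart arrays). Heart MCT 3 was high in Myl7, an atrium marker, at 8.53, followed by heart PS 3 at 6.80. The other heart arrays had Myl7 at 4.16 to 5.08. The mean of 6 atrium markers was 7.58 in MCT 3 and 7.28 in PS 3, against 6.36 to 6.82. Of that list, Myl4 and Sln were also highest in MCT 3 and PS 3, whereas Nppa was lowest there (10.44 and 10.71, against 11.31 to 12.31). Bmp10 and Stard10 lay within the range of the other heart arrays. Heart PS 2 had the highest fibroblast marker mean, 9.07 against 7.32 to 7.75 in the other 5. Neuron markers averaged 10.79 to 10.98 in cerebrum and 5.0 to 5.36 in heart, and cardiomyocyte markers 11.89 to 12.15 in heart and 5.41 to 5.61 in cerebrum, as the tissue labels say. In bulk tissue, fewer cells of a type and less RNA per cell cannot be told apart.

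Promoters are shown for the 2 genes that differed between the treatments in heart, Slc10a6 and Hsd11b1, and for Fkbp4, which differed between the tissues. Each runs 5′ to 3′ from 250 bases before to 50 bases after the start (RefSeq, GRCm38.p6), and 4 of the 5 genes had an entry. Capitals mark CCAAT boxes and, in Slc10a6, a match to AGAACANNNTGT.
Slc10a6, chr5:103629354-103629653, minus strand: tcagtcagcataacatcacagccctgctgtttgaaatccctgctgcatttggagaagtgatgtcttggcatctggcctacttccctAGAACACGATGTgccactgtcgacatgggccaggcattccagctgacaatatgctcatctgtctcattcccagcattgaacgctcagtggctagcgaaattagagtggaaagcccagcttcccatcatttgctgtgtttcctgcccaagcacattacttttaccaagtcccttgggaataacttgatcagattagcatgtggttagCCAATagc
Hsd11b1, chr1:193242311-193242610, minus strand: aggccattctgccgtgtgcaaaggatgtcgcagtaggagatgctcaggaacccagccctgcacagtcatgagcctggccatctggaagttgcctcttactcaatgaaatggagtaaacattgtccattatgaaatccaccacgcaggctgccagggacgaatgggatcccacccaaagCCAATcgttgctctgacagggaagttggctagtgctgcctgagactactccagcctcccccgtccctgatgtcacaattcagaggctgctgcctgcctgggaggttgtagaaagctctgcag
Fkbp4, chr6:128438607-128438906, minus strand: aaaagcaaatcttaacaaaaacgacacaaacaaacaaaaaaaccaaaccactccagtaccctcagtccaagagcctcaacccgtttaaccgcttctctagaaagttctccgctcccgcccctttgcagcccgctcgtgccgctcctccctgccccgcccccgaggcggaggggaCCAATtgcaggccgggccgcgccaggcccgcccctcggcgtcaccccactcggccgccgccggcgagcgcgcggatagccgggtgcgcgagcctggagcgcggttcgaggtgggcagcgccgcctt

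The receptor binding element of glucocorticoid and mineralocorticoid receptors is an inverted repeat of AGAACA. The Slc10a6 promoter held AGAACACGATGT, with its first base at position -164 from the start. Both strands were searched, and the pattern AGAACANNNTGT was in 0.414% of 32851 promoters of this length. AGAACA alone, which that match contains, was in 19% of them. The full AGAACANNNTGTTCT was in 0.00913% of promoters and in none of these 4. The heat shock element TTCNNGAANNTTC, in 0.603% of promoters, matched none of the 4 either. A shorter form, GAANNTTC, was added after the sequences had been read. It was in 7.86% of promoters and matched Fkbp4 and Nr3c2 once each. CCAAT was in 37.4% of promoters and GGGCGG in 35.7%. Nr3c2 (GC 65.7%) and Fkbp4 (65.3%) held GGGCGG 3 times each, and Slc10a6 (48%) and Hsd11b1 (54.7%) not at all, against a median GC of 52.7% over all promoters. A match describes letters only, and occupancy was not measured.

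Nr3c1 encodes the glucocorticoid receptor. Its log2 level in heart was 8.12, 8.13 and 8.36 with MCT and 8.17, 8.33 and 7.99 with PS. In cerebrum it was 8.21, 8.12 and 8.30 with MCT and 8.29, 8.50 and 7.90 with PS. All 4 groups overlapped, and the lowest value in each tissue was in PS 3. The order of the group means was cerebrum PS (8.23), cerebrum MCT (8.21), heart MCT (8.20) and heart PS (8.16), and no neighbours differed beyond their SDs of 0.09 to 0.30. The difference of heart from cerebrum in MCT mice was -0.01 (95% interval -0.27 to 0.26), and in PS mice -0.07 (-0.46 to 0.32).

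Nr3c2 encodes the mineralocorticoid receptor. In cerebrum its level was 7.42, 7.47 and 7.48 with MCT and 7.23, 6.97 and 7.17 with PS. Every cerebrum PS array lay below every MCT array, and the lowest was PS 2, the PS array with the male pattern. In heart it was 6.85, 7.12 and 7.73 with MCT and 7.45, 7.23 and 7.24 with PS, so the MCT arrays spanned all PS arrays. The cerebrum difference was -0.33 (SE 0.09, limma adjusted p = 0.0679). It did not pass the threshold of an adjusted p under 0.05, although limma's array weights took it past (-0.28, adjusted p = 0.0314). With those weights 3407 of 12733 transcripts passed, against 734 without them. A fit with the sex pattern gave -0.49, which compares 1 PS array, PS 2, with the 3 MCT arrays. With the striatum mean as a covariate it was -0.27 (adjusted p = 0.607), in a fit where 1 of 12733 transcripts passed. Groups that do not overlap, with PS lower, made up 20.4% of all transcripts tested in cerebrum. Heart and cerebrum differed by -0.22 (95% interval -0.69 to 0.25) in MCT mice and by 0.18 (-0.07 to 0.44) in PS mice. The order of the means was cerebrum MCT (7.46), heart PS (7.31), heart MCT (7.23) and cerebrum PS (7.12), and heart MCT, with an SD of 0.45, overlapped both of its neighbours.

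**Figure D1:**
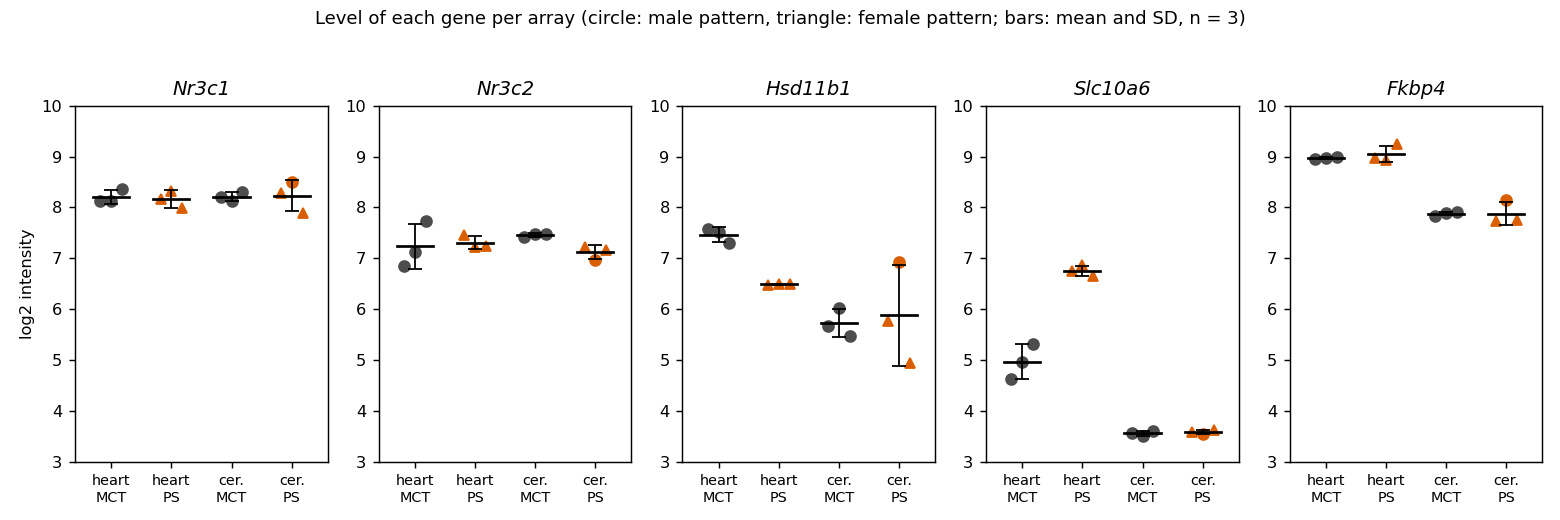
Log2 intensity (vertical axis) of the 5 genes on each array, in heart and cerebrum (cer.) with MCT (grey) or PS (orange). Circles have low Xist and triangles high Xist, and lines are the mean and SD of 3 arrays. Slc10a6 lay at 6.66 to 6.86 in heart with PS and at 4.63 to 5.31 with MCT, whereas Hsd11b1 lay at 6.48 to 6.50 and 7.31 to 7.58.

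Fkbp4 encodes FKBP52, an HSP90 co-chaperone that helps steroid receptors to bind hormone and reach the nucleus. Its level in heart was 8.96, 8.98 and 9.0 with MCT and 8.97, 8.94 and 9.24 with PS. In cerebrum it was 7.84, 7.89 and 7.91 with MCT and 7.74, 8.14 and 7.75 with PS. Every heart array was above every cerebrum array, and the treatments overlapped in both tissues. Heart lay wholly above cerebrum for 36.9% of transcripts tested in MCT mice and for 40.8% in PS mice. Heart was higher than cerebrum by 1.10 (SE 0.10, limma adjusted p = 1.01e-05) in MCT mice and by 1.17 (SE 0.14, limma adjusted p = 1.41e-04) in PS mice. PS and MCT differed by 0.07 (95% interval -0.22 to 0.36) in heart, and both cerebrum groups had a mean of 7.88. Heart PS (9.05) and heart MCT (8.98) did not differ beyond their spread.

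Hsd11b1 encodes 11β-hydroxysteroid dehydrogenase type 1, which regenerates active glucocorticoid inside cells. In heart its level was 7.58, 7.51 and 7.31 with MCT and 6.48, 6.50 and 6.49 with PS. The PS arrays were nearly equal and all lay below the MCT arrays, as for 11.2% of transcripts tested. In cerebrum it was 5.67, 6.03 and 5.48 with MCT and 5.76, 6.93 and 4.94 with PS. PS 2 was the highest cerebrum array and PS 3 the lowest, with every MCT array between them. The heart difference between PS and MCT was -0.98 (SE 0.12, 95% interval -1.25 to -0.70, limma adjusted p = 0.0234). That in cerebrum was 0.15 (SE 0.44, -0.88 to 1.18). The heart difference minus the cerebrum difference was -1.13 (SE 0.50, limma adjusted p = 0.242), so a difference between the tissues was not shown.

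Beside the Hsd11b1 values in heart, adipocyte markers averaged 5.40 to 6.36 with MCT and 5.68 to 5.92 with PS over 8 measured genes. Fibroblast markers averaged 7.32 to 7.75 and 7.58 to 9.07 over 9 genes. Without heart MCT 1 the difference was -0.92 (adjusted p = 0.115), and leaving out MCT 2 or any 1 PS array also raised the adjusted p above 0.05 (up to 0.189). In cerebrum PS 2 the macrophage and microglia markers averaged 6.78, against 6.34 to 6.53 in the other 5 arrays. The list did not rise as a whole. In PS 2, C1qa (7.75), Cd68 (7.44) and Mrc1 (4.70) stood clearly above the other 5 arrays. Tmem119 (7.08), Aif1 (5.08) and Adgre1 (6.12) lay within the range of those arrays. Cx3cr1 (7.91), P2ry12 (6.58) and Csf1r (8.34) lay at or just above its top. The part of these marker lists in the Hsd11b1 values was not tested. Without PS 2 the cerebrum difference of Hsd11b1 became -0.38.

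The comparisons of heart with cerebrum are other contrasts than those of PS with MCT, but they use the same arrays, so they are not independent of the choice of genes either. Hsd11b1 was higher in heart than in cerebrum by 1.74 (SE 0.16, 95% interval 1.38 to 2.10, limma adjusted p = 1.12e-05) in MCT mice. In PS mice that difference was 0.61 (SE 0.43, -0.40 to 1.62, adjusted p = 0.228), without cerebrum PS 2 it was 1.14 (limma adjusted p = 0.0035), and without cerebrum PS 3 it was 0.15. Its group means ran from heart MCT (7.47) and heart PS (6.49) to cerebrum PS (5.88, SD 1.00) and cerebrum MCT (5.73), and cerebrum PS overlapped both of its neighbours in that order. Hsd11b1 is abundant in liver, and cerebrum MCT 2, the array with liver RNA, had the highest of the cerebrum MCT values (6.03). Cerebrum PS 2, with Alb at 3.90, had 6.93. The part of liver RNA in the Hsd11b1 values was not tested. Leaving out each array in turn kept the MCT difference at 1.62 to 1.89.

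Slc10a6 encodes a sodium-dependent importer of sulfated steroids. Its level in heart was 4.63, 4.97 and 5.31 with MCT and 6.75, 6.86 and 6.66 with PS. Every PS array was above every MCT array, as for 17.2% of transcripts tested. In cerebrum it was 3.56, 3.51 and 3.61 with MCT and 3.58, 3.54 and 3.62 with PS, which is below the filter on low values of 5.04 there. The heart difference was 1.79 (SE 0.18, 95% interval 1.37 to 2.20, limma adjusted p = 0.0103). Leaving out heart MCT 2 or any 1 PS array kept it at 1.73 to 1.83 with adjusted p of 0.0552 to 0.0936. The order was heart PS (6.76), heart MCT (4.97), then cerebrum PS (3.58) and cerebrum MCT (3.56), which did not differ beyond their spread.

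The endothelial marker mean in heart was 8.33, 8.57 and 8.86 with MCT and 9.04, 9.23 and 9.08 with PS. The smooth muscle and pericyte mean was 7.26, 7.45 and 7.74 with MCT and 7.93, 8.33 and 7.99 with PS. Both were higher in each PS array than in any MCT array and, like Slc10a6, were lowest in MCT 1 and highest in PS 2. Their part in the Slc10a6 difference was not tested. Of 10 endothelial and 9 smooth muscle genes tested in heart, limma called 0, with 7 and 6 at an unadjusted p under 0.05, beside 23.7% of all transcripts.

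With the filter on low values, Slc10a6 was not tested between the tissues, since its mean over both was under 5.23 and 5.22. Fitted without the filter it passed in MCT mice (limma adjusted p = 1.19e-04) and in PS mice (limma adjusted p = 9.33e-08). In those fits 13194 and 11985 of 21218 transcripts passed. Every heart array was above every cerebrum array, and the group means differed by 1.41 in MCT mice and 3.18 in PS mice. The cerebrum side lay below the filter on low values, so the sizes of these differences are uncertain.

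**Figure D2:**
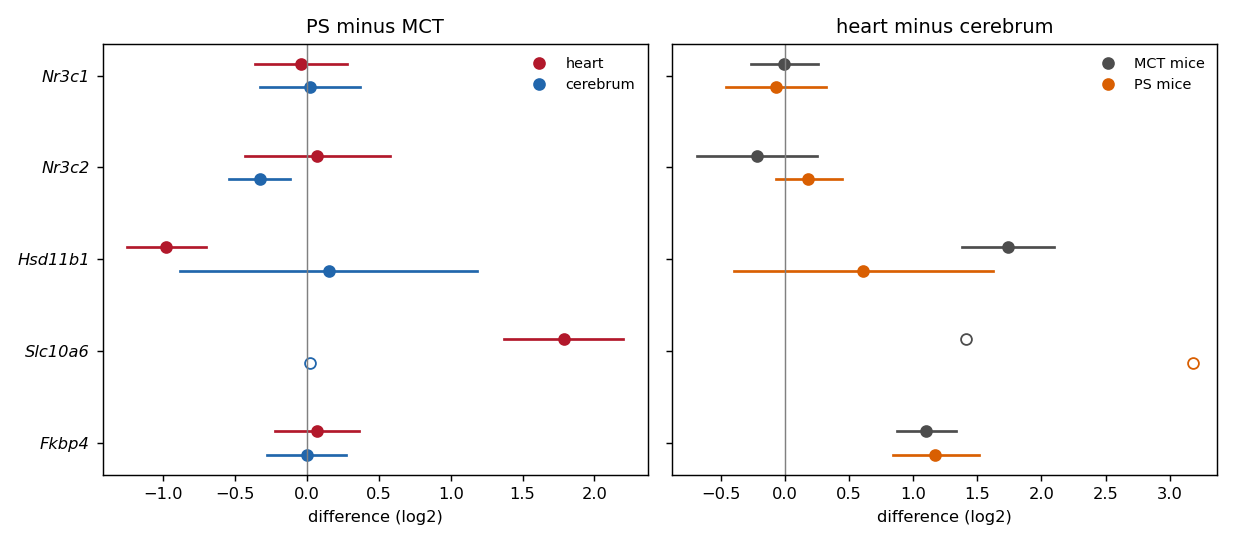
Difference in log2 intensity (horizontal axis) of PS minus MCT by tissue and of heart minus cerebrum by treatment, for the 5 genes. Points are differences between group means and lines 95% intervals; open points lay below the filter and have no interval. Slc10a6 (1.79) and Hsd11b1 (-0.98) lay apart from 0 in heart, and Fkbp4 (1.10 and 1.17) in both tissue comparisons.

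In heart, 2 of the 5 genes passed for PS against MCT, beside 0.33% of 12736 transcripts. In cerebrum 0 of 4 tested passed by limma, beside 5.76% of 12733, and 1 of the 4, Nr3c2, had an unadjusted p under 0.05, beside 29% of transcripts. For the difference between the tissues' responses 0 of 4 passed by limma, beside 1.52% of 12731, and 1 of the 4, Hsd11b1, had an unadjusted p under 0.05 (0.0424), beside 19.2% of transcripts. For heart against cerebrum 2 of 4 passed in MCT mice, beside 75.5% of 12734 transcripts, and 1 of 4 in PS mice, beside 75.9% of 12732. Those shares are below the background. The same groups enter several comparisons, which are therefore not independent.

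The genes whose profiles over the 6 heart arrays lay closest to Slc10a6, by the root mean square distance after subtracting each gene's mean, were Fam107a (0.11), Baiap2 (0.19) and Ncam1 (0.20). Fam107a was at 6.76, 7.02 and 7.56 with MCT and at 8.76, 9.05 and 8.98 with PS. Those closest to Hsd11b1 in heart were Cox19, Bri3 and Timm10, at 0.10 each. Cox19 was at 9.28, 9.08 and 8.78 with MCT and at 8.15, 8.27 and 8.15 with PS. In cerebrum Hsd11b1 lay closest to Ifit3 (0.14), an interferon-induced gene, then Mpeg1 (0.23), a macrophage gene, and Lypd6b (0.24). Ifit3 was at 6.67, 6.90 and 6.56 with MCT and at 6.51, 7.86 and 6.11 with PS. All these genes were chosen for closeness over these same arrays, so a likeness to the member's pattern follows from the choice.

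**Figure D3:**
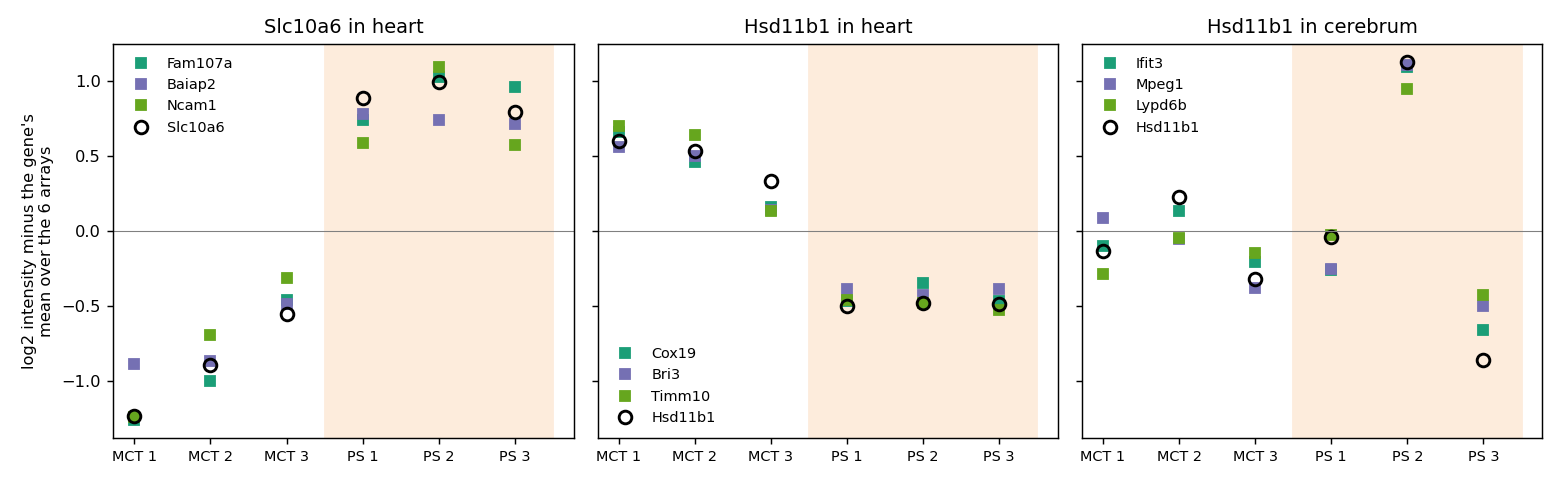
Log2 intensity minus each gene's mean over 6 arrays (vertical axis) by array, for Slc10a6 and Hsd11b1 (open circles) and the 3 genes with the closest profiles (squares). PS arrays are shaded. In heart the profiles split by treatment, and in cerebrum the 4 genes were highest in PS 2. The squares were chosen for closeness to the circles, so this likeness follows from the choice.

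Hsd11b1 needs NADPH made in the endoplasmic reticulum by H6pd. H6pd was at 6.68, 6.78 and 7.26 in heart with MCT and at 7.18, 7.41 and 7.46 with PS, with overlap. In cerebrum it was at 5.13, 5.16 and 5.24 with MCT and at 5.58, 5.52 and 5.45 with PS. The cerebrum difference was 0.34 (SE 0.08, limma adjusted p = 0.0489), and in 15 of 17 other settings its adjusted p was above 0.05. The heart difference was 0.44 (SE 0.17, limma adjusted p = 0.186). Hsd11b2, which inactivates glucocorticoid, was at 4.12 to 4.84 on all arrays, below the filter in every comparison.

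The wider pathway was read from lists of genes by role. Of 16 receptor chaperones and co-chaperones tested in heart, 1 rose with PS, Fkbp5, and none fell, beside 0.33% of transcripts called. Their median was 0.12, beside 0.06 over all transcripts. Fkbp5 encodes FKBP51, which lowers the hormone affinity of the glucocorticoid receptor and is itself induced by it. It was at 5.80, 5.73 and 5.91 in heart with MCT and at 7.96, 8.59 and 8.28 with PS, a difference of 2.46 (SE 0.17, limma adjusted p = 0.00137). In cerebrum it was at 6.55, 6.83 and 6.71 with MCT and at 7.38, 6.37 and 7.51 with PS. Both arrays above the MCT arrays had the female pattern, and PS 2, with the male pattern, was below them. The cerebrum difference was 0.39 (limma adjusted p = 0.384), and without PS 2 it was 0.75 (limma adjusted p = 0.0365). With the sex pattern in the fit it was -0.33, which is PS 2 alone against the MCT arrays.

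Of 18 glucocorticoid-induced genes tested in heart, 2 rose and none fell, beside 0.33% of transcripts called. Their median was 0.65, beside 0.06 over all transcripts, and 15 had an unadjusted p under 0.05, beside 23.7% of transcripts. The list was chosen with earlier results of these arrays known. The risen genes were Fkbp5 and Tsc22d3, which encodes the anti-inflammatory protein GILZ. Tsc22d3 was at 8.23, 8.35 and 8.23 with MCT and at 9.01, 9.24 and 9.09 with PS, a difference of 0.84 (SE 0.12, limma adjusted p = 0.0337). Leaving out MCT 1, MCT 2 or any 1 PS array raised its adjusted p above 0.05. All 18 differences were positive, beside 57.9% of all transcripts. In the same arrays the differences of endothelial markers were positive for 10 of 10 genes (median 0.56), of smooth muscle and pericyte markers for 7 of 9 (median 0.67) and of fibroblast markers for 9 of 9 (median 0.51), and their part in the list's median was not tested. In cerebrum 4 of 16 rose and none fell, beside 5.76% of transcripts called, with a median of 0.38 beside -0.03 over all transcripts. Striatum markers had a median of -1.87 (10 genes) and cerebral cortex markers of 0.52 (8 genes) in those arrays. The 3 with the lowest p were Zbtb16 (1.16, limma adjusted p = 0.0136), a transcription factor, Cdkn1a (1.31, limma adjusted p = 0.0275), a cell cycle inhibitor, and Per1 (0.55, limma adjusted p = 0.0314), a clock gene. With the replicate number as a block, adjusted p for these 3 was 0.0919 to 0.124. With the striatum mean as a covariate it was 0.347 for Zbtb16, 0.268 for Cdkn1a and 0.467 for Per1. Tsc22d3 differed by 0.37 in cerebrum (limma adjusted p = 0.101).

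**Figure D4:**
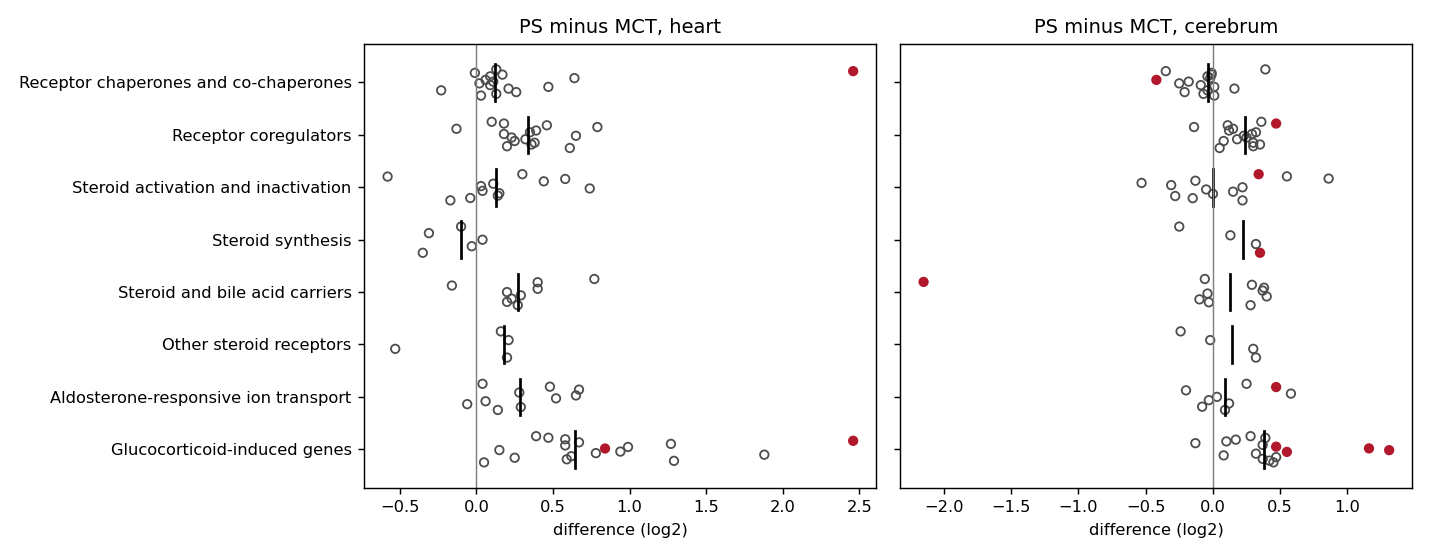
PS minus MCT difference in log2 intensity (horizontal axis) of each tested gene of 8 lists, in heart and cerebrum. Filled points passed an adjusted p of 0.05, and black lines are list medians. In heart the filled points are Fkbp5, which is in 2 lists, and Tsc22d3; the glucocorticoid-induced genes have the highest median, 0.65.

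Limma called 0 genes of the other 6 lists in heart, although 5 of 16 coregulators, 4 of 12 genes of steroid activation and inactivation, 0 of 5 of synthesis, 3 of 9 carriers, 1 of 4 other receptors and 2 of 10 of ion transport had an unadjusted p under 0.05, beside 23.7% of all transcripts. Those with the lowest p in each were Ncoa3 (0.65), Papss2 (0.74), Fdx1 (-0.31), Slco2a1 (0.77), Esrra (-0.53) and Sgk1 (0.67). In cerebrum the counts of these lists stand beside 5.76% of all transcripts called. There 1 of 16 chaperones fell, Bag1 (-0.42, limma adjusted p = 0.0371), and 1 of 16 coregulators rose, Nrip1 (0.47, limma adjusted p = 0.0424). Of 13 genes of steroid activation and inactivation 1 rose, H6pd. Of 4 of steroid synthesis 1 rose, the cholesterol carrier Stard3 (0.35, limma adjusted p = 0.0463). Of 9 of aldosterone-responsive ion transport 1 rose, the kinase Sgk1 (0.47, limma adjusted p = 0.0493). Of 18 other settings, the adjusted p was above 0.05 in 14 for Sgk1, in 13 for Stard3, and in 11 each for Bag1 and Nrip1, with the directions kept. Limma called 0 of 4 other steroid receptors, 2 of which had an unadjusted p under 0.05, the lowest being that of Esr1 (-0.24). Of 10 carriers 1 fell, Slc10a4, a relative of Slc10a6 found in neurons. Slc10a4 was at 6.39, 7.08 and 6.87 with MCT and at 4.04, 4.31 and 5.53 with PS (-2.15, limma adjusted p = 0.0342). The striatum markers had the same order of PS arrays. With their mean as a covariate the Slc10a4 difference was -0.70 (adjusted p = 0.473, in a fit where 1 of 12733 transcripts passed). Since that mean was 9.43 to 9.60 with MCT and 6.75 to 8.76 with PS, it moved with the treatment, and its part in the Slc10a4 difference cannot be told apart from it.

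Between the tissues 75.5% of all transcripts were called in MCT mice and 75.9% in PS mice, and most of the list counts were near or under those shares. Of the chaperones, 2 of 16 were higher and 7 lower in heart in MCT mice, so Fkbp4 differed the opposite way from Hsp90aa1 (-1.92, limma adjusted p = 5.11e-07), which encodes HSP90 alpha. In PS mice 4 were higher and 4 lower. Of 13 genes of steroid activation and inactivation, 6 were higher and 3 lower in heart in each treatment, and H6pd was higher by 1.73 (limma adjusted p = 1.20e-05) and 1.83 (limma adjusted p = 1.73e-06). Of 10 carriers, 4 were higher and 3 lower in MCT mice and 7 higher and 2 lower in PS mice. Slco1a4, a brain endothelial carrier, was lower in heart by a difference of -4.06 (limma adjusted p = 3.03e-08) in MCT mice. Of 4 genes of steroid synthesis 3 were higher in heart in each treatment, with Tspo, a mitochondrial outer membrane protein, at 3.22 (limma adjusted p = 1.21e-07) in MCT mice. All 3 other receptors tested were higher in heart in each treatment, led by Esrrb (3.15, limma adjusted p = 3.38e-08 in MCT mice). Adrenal cortex markers averaged 3.85 to 3.98 on all 12 arrays.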

How the data were processed

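Per the labels' protocols, RNA of heart and cerebrum was extracted with an RNeasy Plus Mini kit and labelled for Affymetrix whole-transcript arrays. The deposited values are taken as log2 intensity per transcript cluster, from their range. The submitters' processing notes name Affymetrix Expression Console as the authors' software. For its version, the genome build, and how background and probes were handled, no source used here gives details. The table holds 35556 clusters on 12 arrays, with array medians near 5, and was used without further normalization, so a shift of all transcripts would not be seen. Of the clusters, 21218 had 1 symbol, 1881 several and 12457 no entry.

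limma 3.58.1 in R 4.3.3 (lmFit, eBayes) was fitted per comparison to clusters with 1 symbol and a mean no lower than the 40th percentile of the arrays fitted, with Benjamini-Hochberg adjustment over all of them and a threshold of 0.05. Of several clusters of a listed gene, the one with the highest mean was used. The members, gene lists and sequence motifs were chosen with earlier results of these data known, and GAANNTTC after the promoters had been read. Text names the members, Fkbp5, Hsd11b2, H6pd and Tsc22d3, and per list and comparison up to 3 genes by lowest p among those past the threshold, or else the 1 with the lowest p; for heart against cerebrum only some of these are printed. Scripts were tested on simulated data. In MCT mice the deviations of same-numbered heart and cerebrum arrays had r of 0.114, 0.102 and 0.287. The highest r with another number was 0.191, 0.097 and -0.146. The labels state no pairing. Alternatives covered normalization, filters, variance models, covariates and arrays left out; leaving out 2 arrays together was chosen after seeing the data. P-values measure the spread between 3 arrays per group, and the number of arrays limits the precision.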

Additional observations from a re-analysis of the deposited data

Results flagged for a closer look

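By limma's fit of the difference between the tissues' responses to PS, 3 genes lay past the threshold. The genes and lists were chosen with results of these arrays known, so these are descriptions. For Slc10a6, fitted without the filter on low values, the heart difference minus the cerebrum difference was 1.77. Its cerebrum values were all 3.51 to 3.62, below the filter, so this value restates the heart difference for which it was chosen and shows nothing about a response in cerebrum. Fkbp5 had a response larger in heart by 2.07 (SE 0.35, adjusted p = 0.0191); without cerebrum MCT 1 or MCT 2 the adjusted p was 0.0576 and 0.0632. Papss2, which makes the sulfate donor for steroid sulfation, differed by 1.27 (SE 0.25, adjusted p = 0.0293). It was at 7.14, 7.28 and 7.37 in heart with MCT and at 7.80, 8.36 and 7.86 with PS, and at 7.61, 7.77 and 7.36 in cerebrum with MCT and at 6.77, 7.07 and 7.31 with PS. Neither of its responses passed within a tissue (adjusted p = 0.119 and 0.0833), and leaving out any of 8 single arrays raised the adjusted p of the difference above 0.05 (up to 0.0863). All PS heart arrays have the female pattern and 1 PS cerebrum array does not, and the part of this in the 3 differences was not tested.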

How the results depend on the processing

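In heart the count of 2 members past the threshold became 1 with a filter at the 60th percentile and over all transcripts of the table, and 0 in one fit of all 12 arrays and with MCT 1 and PS 2 left out together; leaving out 1 array gave 0 to 2. At the 60th percentile and in the 12-array fit Slc10a6 was below the filter. Over all transcripts 42 passed as reported, 1567 in the 12-array fit, 4 without MCT 2 and 3416 without MCT 3. The Hsd11b1 difference stayed between -1.05 and -0.92 and that of Slc10a6 between 1.57 and 1.96, while 8 of 16 and 5 of 14 settings raised their adjusted p above 0.05. In cerebrum the count of 0 became 1 (Nr3c2) with array weights, where 3407 of 12733 transcripts passed, against 734 as reported. Leaving out 1 array gave 0. With the sex pattern as a covariate Nr3c2 was at -0.49, where 1 PS array, PS 2, stands against the 3 MCT arrays. For the difference between the tissues' responses, 0 became 1 without a filter and over all transcripts. Leaving out 1 array gave 0 to 1. Hsd11b1 passed without cerebrum PS 3 (limma adjusted p = 0.0399), where 364 of 12731 transcripts passed. Nr3c2 passed without heart MCT 3 (limma adjusted p = 0.0256), where 1629 of 12732 transcripts passed. As reported, 194 of 12731 transcripts passed. For heart against cerebrum in MCT mice, 2 became 1 at the 60th percentile. It became 3 with array weights (Nr3c2 at -0.31, limma adjusted p = 2.55e-04) and without a filter (Slc10a6). Leaving out 1 array gave 2 to 3, with Nr3c2 at -0.47 without heart MCT 3. Over all transcripts 9610 of 12734 passed as reported, 11652 with array weights, and 10315 of 12732 without heart MCT 3. In PS mice 1 became 3 after quantile normalization (Nr3c2 at 0.32 and Slc10a6 joined Fkbp4) and 2 without a filter and over all transcripts. Leaving out 1 array gave 1 to 3, the highest without cerebrum PS 2. Over all transcripts 9665 of 12732 passed as reported, 9809 of 12731 after quantile normalization, and 9235 of 12731 without cerebrum PS 2. Where a count moved for reasons other than the filter, the cause was not tested.

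Values that changed sign were all short of the threshold. For PS against MCT in heart, Nr3c2 was -0.08 without MCT 1 and PS 2. In cerebrum Nr3c1 was -0.01 with centred medians and -0.49 with the striatum covariate, Hsd11b1 -1.21 with that covariate, Fkbp4 0.02 after quantile normalization, 0.26 with the sex pattern and 0.07 without MCT 2 and PS 3, and Fkbp5 -0.33 with the sex pattern (PS 2 alone against MCT). For heart against cerebrum in MCT mice, quantile normalization gave 0.13 for Nr3c1 and 0.01 for Nr3c2, and centred medians 0.00 for Nr3c1; in PS mice quantile normalization gave 0.02 for Nr3c1. Quantile normalization moved the median of all transcripts by 0.14 and 0.11 in these comparisons. Leaving out 1 array gave, in heart, -0.12 to 0.05 for Nr3c1, -0.12 to 0.32 for Nr3c2 and -0.03 to 0.12 for Fkbp4; in cerebrum, -0.12 to 0.18 for Nr3c1, -0.38 to 0.62 for Hsd11b1 and -0.14 to 0.06 for Fkbp4; for the difference in response, -0.22 to 0.08 for Nr3c1, -0.02 to 0.21 for Fkbp4 and -0.01 to 0.28 for H6pd; and between tissues, -0.09 to 0.04 (MCT) and -0.23 to 0.07 (PS) for Nr3c1.

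With the replicate number as a block, the member counts were 2 in heart, 0 in cerebrum, 0 for the difference in response, and 2 and 1 for heart against cerebrum, as without it. Between heart PS and MCT arrays, deviations of the same number had r of 0.032, 0.086 and 0.122. The highest r with another number was 0.022, 0.005 and -0.046. In PS mice heart and cerebrum had 0.115, 0.098 and 0.054, against 0.026, -0.057 and -0.014, although heart PS 2 and cerebrum PS 2 differed in sex pattern. Cerebrum PS and MCT arrays had 0.113, -0.150 and -0.263, against 0.078, 0.199 and 0.275. Whether the numbers pair the arrays was not tested. The block changed the count over all transcripts from 734 to 0 in cerebrum and from 42 to 88 in heart.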
